A study of Mus musculus with 6 samples.

Results

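The genes described here encode proteins of the splicing machinery. They include Sm and other proteins of small nuclear ribonucleoproteins (symbols starting Snrp) and Sm-like proteins (Lsm with a digit). The others are the SF3 subunits of the spliceosome (Sf3a and Sf3b), the SR proteins (Srsf) and the hnRNP proteins (Hnrnp). Membership was set by symbol alone, among array rows annotated to exactly 1 gene, with the row of highest mean kept for each gene. This gave 57 of the 17858 genes measured: 13 Lsm, 8 Snrp, 8 Sf3a and Sf3b, 10 Srsf and 18 Hnrnp genes. A further 6 genes (Hnrnpa1, Hnrnpul2, Sf3a1, Snrpa, Snrpg and Snrpn) matched the symbols only on rows shared with another gene, and they were not analysed here, nor were Snrpe and Srsf7. The study measured total RNA of the cerebellum of C57BL/6 mice on Affymetrix exon arrays at 2 ages, P7 (7 days after birth, 3 arrays) and 6wk (6 weeks of age, 3 arrays), to relate expression to changes in 5-hydroxymethylcytosine. No treatment or genetic change is named for either group. Whether each array had its own animal is not stated, so the p-values reflect the spread between these RNA samples, which may be technical.

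Introns are removed from precursor mRNA by small nuclear ribonucleoproteins, each an RNA held in a ring of Sm or Sm-like proteins with further proteins bound to it. SR proteins bind exons and mostly favour their inclusion, while hnRNP proteins coat the precursor and often oppose it, so the balance between them helps to set which exons a cell keeps. In the cerebellum the first postnatal weeks are a time of granule neuron progenitor division and then of neuronal maturation, during which many neuronal exons switch.

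Values are log2 expression values, so a difference of 1 is a 2-fold change. The arrays had medians from 7.82 to 7.97 over all rows, and precision is limited by having 3 arrays per age. The P7 arrays differed in markers of cell types. Over P7 replicates 1, 2 and 3, Gabra6, a GABA receptor subunit of mature granule neurons, had values of 10.56, 4.91 and 9.36, and Pcp2, a Purkinje cell gene, read 9.52, 6.18 and 8.75. Slc6a3, the dopamine transporter of midbrain neurons, which is not a gene of the cerebellum's own neurons, read 6.78, 10.76 and 9.84, against 6.73 to 7.09 at 6wk. Replicate 2 was thus lowest in Gabra6 and Pcp2, though not in every Purkinje cell marker. Replicates 2 and 3 were both high in Slc6a3, so a fit without replicate 2 still holds an array with that signal. The class summaries, and the members whose value on each array is printed, are given with all arrays and without P7 replicate 2, and the class medians also without P7 replicate 1.

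With all arrays, 5 splicing genes fell between P7 and 6wk and 0 rose (limma, Benjamini-Hochberg adjusted p under 0.05 over all 17858 genes). That is 8.77% of the members, while over all genes 13.4% fell and 8.26% rose, so the members were not called more often than other genes. At an unadjusted p under 0.05 limma gave 16 lower and 0 higher members, against 22.4% and 13.3% of all genes. The falls were Snrpd2, Lsm3, Lsm4, Lsm10 and Lsm12. The mean was lower at 6wk in 47 of the 57 members, a larger share than the 57% of all genes. The median log2 difference was -0.20 against -0.05 over all genes. Without P7 replicate 2, 25 members fell and 0 rose, where 17.2% of all genes fell and 9.56% rose, and the median was -0.39 against -0.04. Without P7 replicate 1 the member median was -0.067, against -0.068 over all genes. In 14 of the 57 members all 6wk values lay below all P7 values (25.7% of all genes) and in 0 above (16.4%). Differences of the 25 ranged from -1.06 to -0.36. Leaving out another single array (leave-one-out fits) gave 6 falls (P7 replicate 1; 16.3% of all genes), 0 (P7 replicate 3; 5.4%), 1 (6wk replicate 1; 6.15%), 1 (6wk replicate 2; 7.02%) or 0 (6wk replicate 3; 5.61%).

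Other settings moved the count as well. Statements made with all arrays refer to the first fit, before these changes. Snrpb2, Srsf12 and Hnrnpab also fell when dim genes were left out or array weights were used. After centring each array on the same median 2 members fell, where 9.54% of all genes fell and 11.7% rose. After a further quantile normalization 4 fell, where 9.97% of all genes fell and 12% rose. With array weights 31 members fell (30.9% of all genes), with dim genes left out 8 fell (17.3%), and with P7 replicate 1 as the single P7 array 28 fell (14.7%).

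**Figure D1:**
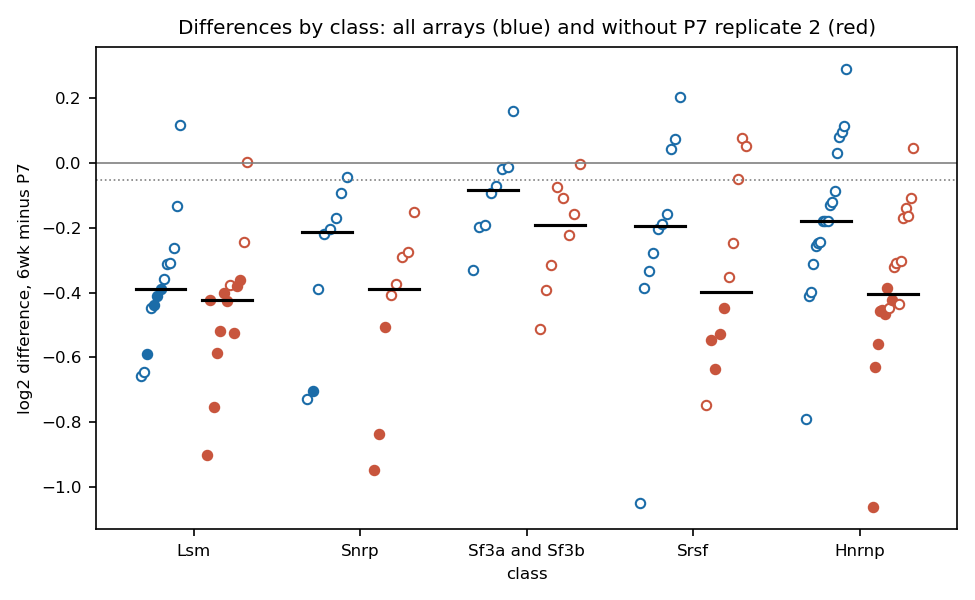
Log2 difference (6wk minus P7, vertical axis) of each splicing gene by class, with all 6 arrays in blue and without P7 replicate 2 in red. Filled points passed limma at an adjusted p under 0.05, black bars are class medians and the dotted line is the median of all genes with all arrays (-0.05). Of the filled points, 5 are blue and 25 red, and all lie below 0.

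The P7 arrays differed among themselves in the same order for nearly every member. P7 replicate 1 read highest, replicate 3 in between and replicate 2 lowest in 52 of 57 members, an order held by 34.1% of all genes. Relative to P7 replicate 1, the median member differed by -0.61 (log2) in P7 replicate 2 and by -0.24 in P7 replicate 3, while over all genes these medians were 0.02 and -0.01. Replicate 2 was the lowest of the P7 arrays in those 52 members, and in 40.7% of all genes. In the other 5 members the order differed: Lsm11 and Srsf12 were highest in P7 replicate 2, and Lsm10, Sf3b4 and Srsf9 were lowest in P7 replicate 3. Set against the 6wk arrays, P7 replicate 1 was above all of them in 55 members (42.4% of all genes), P7 replicate 3 in 41 (44.7%) and P7 replicate 2 in 15 (46.2%). P7 replicate 2 was instead below every 6wk array in 31 members (33.1% of all genes), P7 replicate 3 in 4 (29.8%) and P7 replicate 1 in 0 (33.5%). The 6wk arrays lay close together, with a median SD of 0.08 per member against 0.33 at P7. Over all genes these SDs were 0.10 and 0.17.

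**Figure D2:**
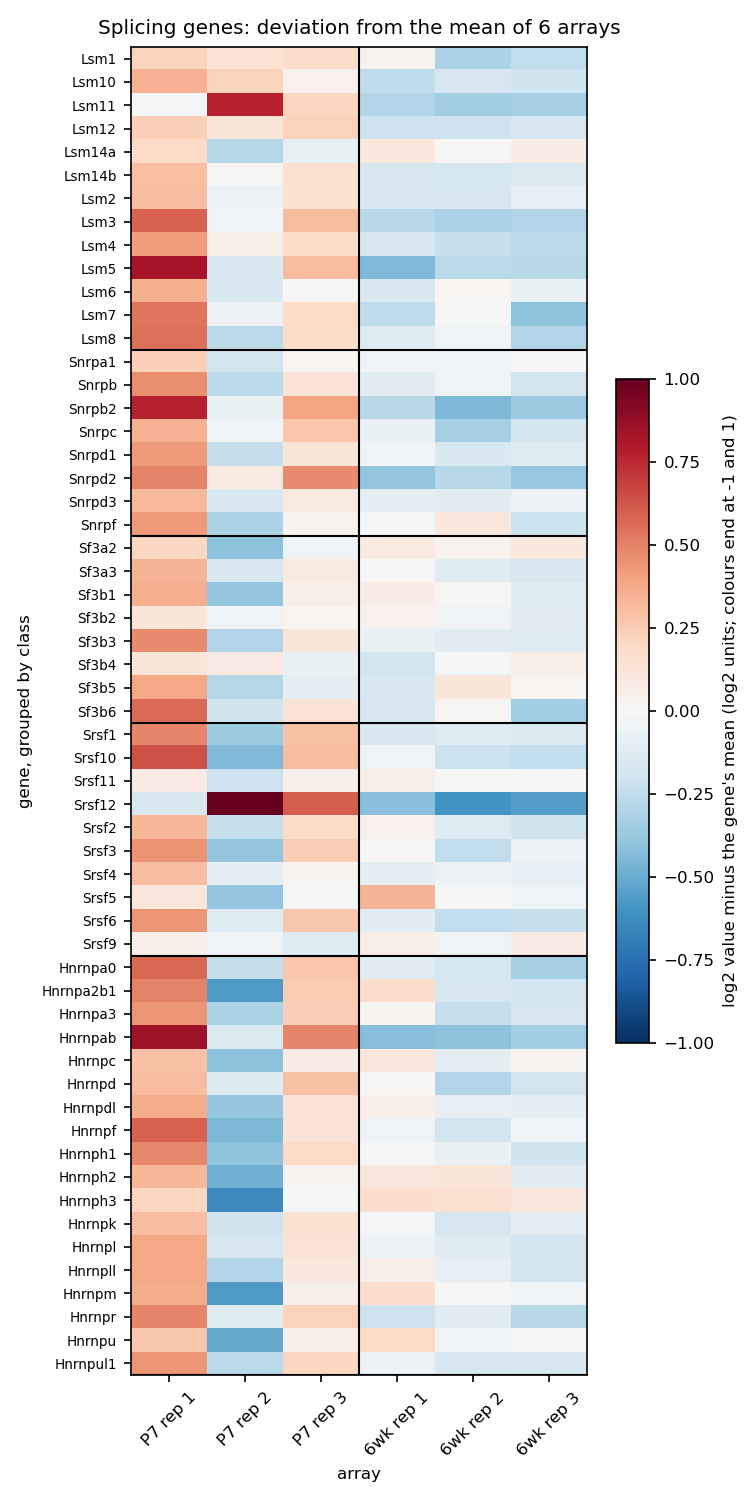
Each of the 57 splicing genes (rows, grouped by class) on each of the 6 arrays (columns), coloured by its log2 value minus its mean over the arrays, in log2 units. P7 replicate 1 is above the gene's mean in 55 rows and P7 replicate 2 in 9, and the 6wk columns are pale. The colour scale ends at 1, which Srsf12 exceeds in P7 replicate 2.

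Marker genes moved across the same P7 arrays. In the order replicate 1, 2 and 3, the 10 measured dividing-cell markers had medians of 9.48, 7.55 and 8.88 and summed levels of 97.79, 78.42 and 92.23, against 64.42 to 64.92 at 6wk. Of these, 7 fell with age and 0 rose. The 9 granule neuron and cerebellum markers had summed levels of 94.82, 68.92 and 89.36 at P7 and 96.16 to 98.04 at 6wk, and 2 rose with age and 0 fell. The 8 midbrain and brainstem neuron markers summed to 56.47, 73.12 and 70.48, against 54.95 to 62.04 at 6wk. Of these, 6 were higher in P7 replicate 2 than in replicate 1, while the hindbrain genes Hoxb3 (9.07, 8.30 and 9.10) and Hoxb5 (7.92, 6.68 and 6.82) were lowest in replicate 2. The 7 choroid plexus markers summed to 62.52, 48.48 and 56.49 at P7 and to 58.44 to 61.85 at 6wk. The 6 Purkinje cell markers summed to 57.53, 49.98 and 55.25, and to 60.93 to 62.06 at 6wk. Of these, 3 rose with age and 0 fell. In all 6, every 6wk value lay above every P7 value (16.4% of all genes). The other sums were for microglia (45.32, 47.11 and 46.05, and 44.16 to 44.86), oligodendrocytes (48.39, 46.16 and 49.08, and 49.12 to 51.52), astrocytes (59.78, 57.55 and 59.29, and 58.05 to 58.31) and blood (15.09, 15.12 and 15.25, and 14.35 to 15.03). These sums of log2 values come from lists of unlike length, and opposite changes within a list cancel. Of the astrocyte markers 3 fell with age and 1 rose. In the oligodendrocyte list 1 rose, and 1 choroid plexus and 1 blood marker fell. Microglia and midbrain markers had 0 calls. Over all genes 13.4% fell and 8.26% rose. The part of cell makeup in the splicing gene differences was not tested. In tissue RNA, fewer cells of a type and less RNA per cell cannot be told apart.

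**Figure D3:**
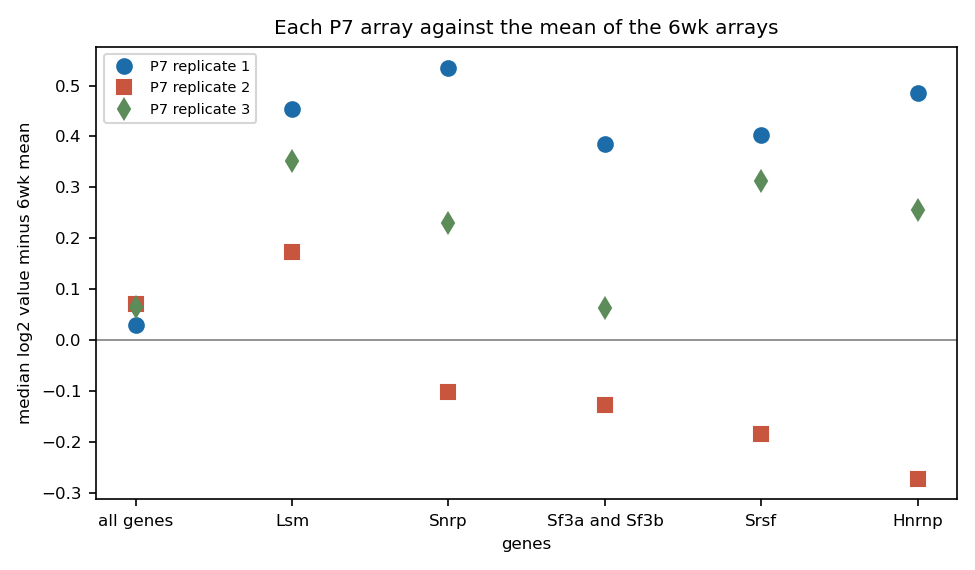
Median, over the genes named on the horizontal axis, of the log2 value on each P7 array minus the mean of the 3 6wk arrays. Over all genes the P7 arrays lie together just above 0, while in each class replicate 1 is highest and replicate 2 lowest, and replicate 2 is below 0 in every class except Lsm.

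Sm-like proteins were the class with most calls. Lsm2 to Lsm8 form the ring that binds U6 RNA, Lsm1 to Lsm7 form a cytoplasmic ring that promotes mRNA decay, and Lsm10 and Lsm11 replace a pair of Sm proteins in the U7 particle, which processes the 3′ ends of histone mRNA. With all arrays 4 of 13 Lsm genes (30.8%) fell and 0 rose, against 13.4% and 8.26% of all genes. At an unadjusted limma p under 0.05, 9 were lower and 0 higher (22.4% and 13.3% of all genes). In 9 all 6wk values lay below all P7 values (25.7% of all genes), and the class median was -0.39. Without P7 replicate 2, 10 fell and 0 rose (17.2% and 9.56% of all genes), with a median of -0.42. The median was -0.33 without P7 replicate 1.

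Lsm3, a subunit of both heteroheptameric rings, read 9.74, 9.12 and 9.47 at P7 and 8.88, 8.83 and 8.86 at 6wk. All P7 arrays were above all 6wk arrays, which had an SD of 0.02 (n = 3). The gene fell by 0.59 on the log2 scale (SE 0.16, limma adjusted p = 0.0433) and by 0.75 without P7 replicate 2 (adjusted p = 0.00507). Lsm4, which is likewise part of both rings, read 9.78, 9.42 and 9.54 at P7 and 9.20, 9.14 and 9.10 at 6wk, and fell by 0.44 (limma, SE 0.11, adjusted p = 0.0383), and by 0.52 without P7 replicate 2 (adjusted p = 0.0158). The groups did not overlap. After centring, neither Lsm3 nor Lsm4 passed (limma adjusted p = 0.0676 and 0.0780), and each passed in 2 of the 6 leave-one-out fits.

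Lsm10 read 8.13, 8.01 and 7.82 at P7 and 7.53, 7.61 and 7.58 at 6wk, and fell by 0.41 (limma, SE 0.10, adjusted p = 0.0341). It lost this call after centring (adjusted p = 0.0809) and after quantile normalization (adjusted p = 0.0782), and passed in 1 of the 6 leave-one-out fits, that without P7 replicate 2 (-0.40, adjusted p = 0.0492). Its partner Lsm11 read 8.78, 9.56 and 9.00 at P7 and 8.50, 8.44 and 8.46 at 6wk. Every P7 value of Lsm11 was above every 6wk value, with replicate 2 the highest, and the difference of -0.65 (SE 0.20) missed the threshold with all arrays (adjusted p = 0.0627). Without that array Lsm11 fell by 0.42 (adjusted p = 0.0271). U7 particles serve the replication-dependent histone mRNAs that dividing cells make. Whether Lsm10 and Lsm11 follow the share of dividing cells was not tested.

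Lsm12, an Lsm-domain protein outside these rings, read 11.03, 10.91 and 11.02 at P7 and 10.58, 10.59 and 10.62 at 6wk. It had the smallest standard error of the class, and fell by 0.39 on the log2 scale (SE 0.08, limma adjusted p = 0.0181), or 1.31-fold, and by 0.43 without P7 replicate 2 (adjusted p = 0.0124). It passed in 2 of the 6 leave-one-out fits. Lsm2 read 7.84, 7.47 and 7.68 at P7 and 7.38, 7.38 and 7.45 at 6wk, without overlap. Its difference of -0.26 (95% interval -0.54 to 0.01) missed the threshold (adjusted p = 0.152) and passed without P7 replicate 2 (-0.36, adjusted p = 0.0352).

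Among the other Lsm genes, Lsm5 had the largest difference, -0.66, with P7 values between 8.01 and 8.99 and 6wk values between 7.72 and 7.89 (adjusted p = 0.101, and -0.90 with adjusted p = 0.0114 without P7 replicate 2). Without that array Lsm7, Lsm8 and Lsm14b also fell, by 0.59, 0.52 and 0.38. Lsm14a, an mRNA-repressing protein of cytoplasmic granules, was the class member with a higher mean at 6wk (0.12, 95% interval -0.20 to 0.44; 0.0031 without P7 replicate 2). The ring made of Lsm2 to Lsm8 had a median difference of -0.44. Of its 7 genes 2 fell, and 6 without P7 replicate 2 (13.4% and 17.2% of all genes).

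The Snrp class holds the Sm ring proteins D1, D2, D3, F and B. It also holds proteins outside the ring that are bound to particular RNAs: Snrpc of U1, and Snrpa1 and Snrpb2 of U2. All 8 had a lower mean at 6wk (57% of all genes). With all arrays 1 (12.5%) fell and 0 rose, against 13.4% and 8.26% of all genes. At an unadjusted limma p under 0.05, 3 were lower and 0 higher (22.4% and 13.3% of all genes). In 3 all 6wk values lay below all P7 values (25.7% of all genes), and the median was -0.21. Without P7 replicate 2, 3 fell and 0 rose (17.2% and 9.56% of all genes), and the median was -0.39. Without P7 replicate 1 the median was -0.047.

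Snrpd2, which encodes the ring protein D2, read 9.89, 9.48 and 9.86 at P7 and 8.99, 9.11 and 9.01 at 6wk. All P7 arrays exceeded all 6wk arrays, and the gene fell by 0.70 on the log2 scale (SE 0.13, limma adjusted p = 0.0130), or 1.63-fold, and by 0.84 without P7 replicate 2 (adjusted p = 0.00196). It passed in 3 of the 6 leave-one-out fits. A second row annotated to Snrpd2 gave a difference of -0.87. The other D proteins differed less: Snrpd1 read 9.08, 8.43 and 8.78 at P7 and 8.63, 8.51 and 8.53 at 6wk, so that P7 replicate 2 lay below every 6wk array (-0.20, 95% interval -0.61 to 0.20, adjusted p = 0.443), and Snrpd3 differed by -0.17 (adjusted p = 0.412). Without that array these were -0.37 (adjusted p = 0.0660) and -0.29 (adjusted p = 0.0894).

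Snrpb, which encodes the ring proteins B and B′, read 9.34, 8.61 and 9.01 at P7 and 8.77, 8.83 and 8.69 at 6wk. The ages overlapped, and the difference of -0.22 (95% interval -0.66 to 0.22) did not pass (adjusted p = 0.446; 0.0585 without P7 replicate 2). Snrpb2, named after its values were seen, read 10.53, 9.69 and 10.16 at P7 and 9.48, 9.31 and 9.39 at 6wk, without overlap. Its difference of -0.73 (SE 0.21, adjusted p = 0.0514) was of the size of that of Snrpd2 but did not pass with all arrays, and it fell by 0.95 without P7 replicate 2 (adjusted p = 0.00489). Snrpc also fell without that array, by 0.51 (adjusted p = 0.0182).

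**Figure D4:**
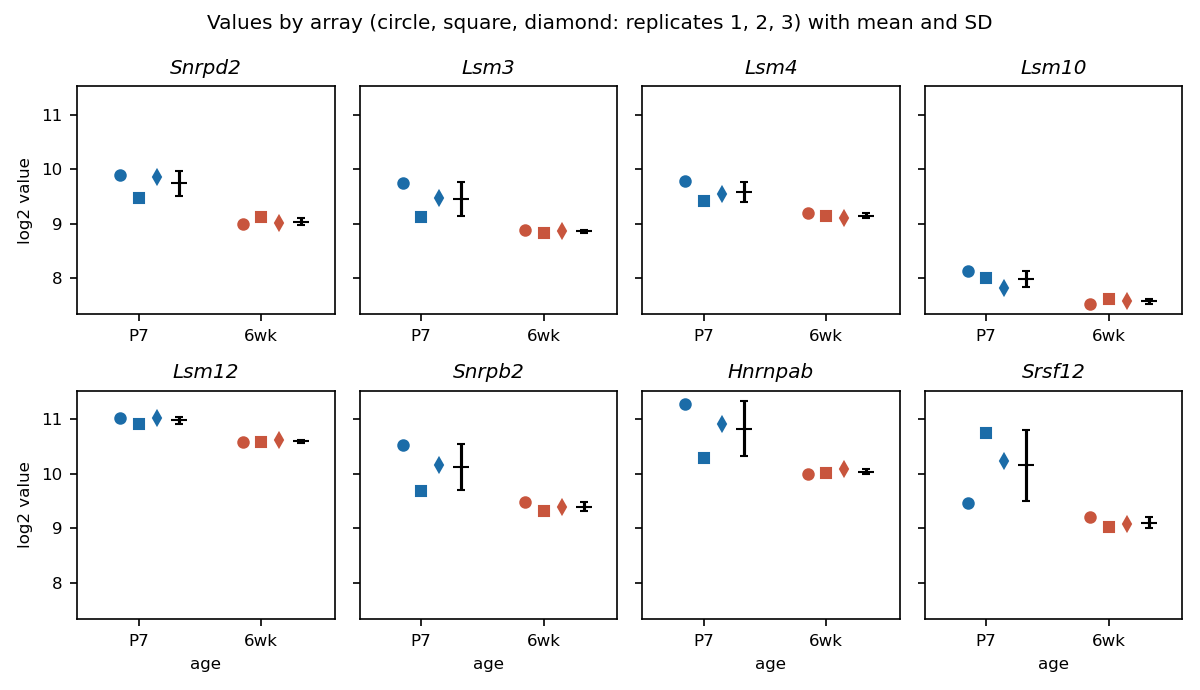
Log2 values of 8 splicing genes on each array (blue P7, red 6wk; circles, squares and diamonds are replicates 1, 2 and 3), with the mean and SD of 3 arrays as black bars. Snrpd2, Lsm3, Lsm4, Lsm10 and Lsm12 fell with all arrays. Snrpb2, Hnrnpab and Srsf12, chosen after their values were seen, did not pass in that fit although their groups do not overlap. P7 replicate 2 is the lowest P7 array in 6 of the 8 panels and the highest for Srsf12.

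The SF3 proteins sit on the U2 particle and help it to hold the branch point of the intron. None of the 8 measured genes passed with all arrays, where 13.4% of all genes fell and 8.26% rose. At an unadjusted limma p under 0.05, 0 were lower or higher (22.4% and 13.3% of all genes). All 8 overlapped between the ages, while over all genes 25.7% had all 6wk values below and 16.4% above all P7 values. Without P7 replicate 2 again 0 fell and 0 rose (17.2% and 9.56% of all genes). The class median was -0.08 with all arrays, -0.19 without that array, -0.021 without P7 replicate 1, and with all arrays it turned to 0.01 after a further scaling between arrays. Sf3b1, the largest subunit of the complex, which contacts the branch point, read 10.70, 9.94 and 10.40 at P7 and 10.41, 10.35 and 10.22 at 6wk. P7 replicate 1 was the highest of the 6 arrays and P7 replicate 2 the lowest, and the difference was -0.02 (95% interval -0.49 to 0.45, adjusted p = 0.958), and -0.22 without P7 replicate 2 (adjusted p = 0.241). Differences of the class ranged from -0.33 (Sf3b6) to 0.16 (Sf3a2).

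Of the SR proteins, 0 of 10 fell or rose with all arrays (13.4% and 8.26% of all genes), with a median of -0.20. At an unadjusted limma p under 0.05, 2 were lower and 0 higher (22.4% and 13.3% of all genes). Without P7 replicate 2, Srsf1, Srsf3, Srsf6 and Srsf10 fell and 0 rose (17.2% and 9.56% of all genes), with a class median of -0.40. The median was -0.058 without P7 replicate 1. Srsf1, the founding member of the family, read 9.56, 8.71 and 9.37 at P7 and 8.93, 8.95 and 8.93 at 6wk. P7 replicates 1 and 3 were above, and P7 replicate 2 below, all the 6wk arrays, so the difference was -0.28 (SE 0.22, adjusted p = 0.413) with all arrays and -0.53 (SE 0.09, adjusted p = 0.0103) without it.

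Srsf3, the smallest SR protein, showed the same arrangement, with 12.23, 11.40 and 12.03 at P7 and 11.78, 11.54 and 11.72 at 6wk (-0.20, adjusted p = 0.559; -0.45, adjusted p = 0.0360 without P7 replicate 2). Srsf2, which binds exonic enhancers, read 11.62, 11.06 and 11.48 at P7 and 11.33, 11.16 and 11.10 at 6wk, and did not pass either way (adjusted p = 0.462 and 0.0620). Srsf5 read 9.70, 9.19 and 9.57 at P7 and 9.93, 9.59 and 9.54 at 6wk, the largest difference towards 6wk in the class (0.20, 95% interval -0.21 to 0.61, adjusted p = 0.451), and 0.05 without P7 replicate 2. Srsf6 and Srsf10 fell by 0.55 and 0.64 without P7 replicate 2.

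Srsf12, an SR-related protein that counteracts SR proteins in human cell assays, had the largest difference of all 57 members and the opposite order at P7. It read 9.47, 10.76 and 10.24 in P7 replicates 1, 2 and 3 and 9.22, 9.03 and 9.08 at 6wk, and it is named after its values were seen. The groups did not overlap, and P7 replicate 1 was the P7 array nearest to the 6wk values. The difference of -1.05 (SE 0.31, 95% interval -1.78 to -0.31) missed the threshold with all arrays (limma adjusted p = 0.0543). It also missed without P7 replicate 2 (-0.75, adjusted p = 0.0548). Without P7 replicate 1 Srsf12 fell by 1.39 (adjusted p = 0.00534). It passed when dim genes were left out and when array weights were used.

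Of the hnRNP genes, 0 of 18 fell or rose with all arrays (13.4% and 8.26% of all genes). At an unadjusted limma p under 0.05, 2 were lower and 0 higher (22.4% and 13.3% of all genes). In 17 the ages overlapped, while over all genes 25.7% had all 6wk values below and 16.4% above all P7 values. The class median was -0.18. This class had the largest gap between P7 arrays: P7 replicate 2 minus P7 replicate 1 had a class median of -0.77. Every one of the 18 was lowest of the P7 arrays in replicate 2 (40.7% of all genes). There 13 lay below every 6wk array (33.1% of all genes). Without P7 replicate 2, 8 fell (Hnrnpa0, Hnrnpa3, Hnrnpab, Hnrnpd, Hnrnph1, Hnrnpl, Hnrnpr and Hnrnpul1) and 0 rose, with a median of -0.41. Of all genes 17.2% fell and 9.56% rose in that fit. The median was 0.02 without P7 replicate 1.

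Hnrnpab, a protein that binds mRNAs carried into cell processes, is named after its values were seen. It read 11.28, 10.29 and 10.92 at P7 and 10.01, 10.02 and 10.09 at 6wk, the single hnRNP gene without overlap. Its difference of -0.79 (SE 0.24) missed the threshold with all arrays (limma adjusted p = 0.0616), and without P7 replicate 2 it fell by 1.06 (SE 0.13, adjusted p = 0.00281). Hnrnpa2b1, which also binds transported mRNAs, read 10.59, 9.54 and 10.36 at P7 and 10.28, 9.94 and 9.91 at 6wk. P7 replicate 2 was the lowest of the 6 arrays, and the difference was -0.12 (95% interval -0.79 to 0.55, adjusted p = 0.795), and -0.43 without that array (adjusted p = 0.0795).

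Hnrnpk, which binds cytosine-rich RNA, read 12.67, 12.16 and 12.52 at P7 and 12.35, 12.19 and 12.27 at 6wk (-0.18, adjusted p = 0.425; -0.32, adjusted p = 0.0591 without P7 replicate 2). Hnrnpu, a nuclear scaffold protein, read 11.01, 10.23 and 10.79 at P7 and 10.93, 10.70 and 10.74 at 6wk. Its difference was 0.11 with all arrays (95% interval -0.37 to 0.60, adjusted p = 0.733) and -0.11 without P7 replicate 2, so its direction rested on that array. Hnrnph3 had the highest difference towards 6wk of all members (0.29, adjusted p = 0.381), and 0.05 without that array.

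For 12 members the annotation gave more than 1 row, most often for Hnrnpa3, with 10. Of the 23 further rows, 20 had the sign of the row used, and in all 23 P7 replicate 2 was the lowest P7 array. The rows of Hnrnpa3 ranged from -0.41 to 0.06 and those of Srsf3 from -0.39 to -0.20. These families have many processed pseudogenes, and rows of near-identical copies may share probe signal, so a row of such a gene is uncertain as to which copy it reads.

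Other genes of the pathway were counted from 4 lists, to be read against the 13.4% of all genes that fell and 8.26% that rose, or 17.2% and 9.56% without P7 replicate 2. Of 67 further core spliceosome genes 6 were higher and 4 lower at an unadjusted limma p under 0.05 (13.3% and 22.4% of all genes). By adjusted p 1 rose and 0 fell (1 rose and 9 fell without P7 replicate 2), and the median was 0.04. The rise was Ddx46, a helicase of the early spliceosome, which read 8.49, 8.08 and 8.40 at P7 and 8.92, 8.69 and 8.83 at 6wk (0.49, SE 0.13, adjusted p = 0.0447), and it passed in 2 of the 6 leave-one-out fits (adjusted p up to 0.143). Of 22 genes of snRNP assembly 2 fell and 0 rose, with a median of -0.19 (7 fell without P7 replicate 2). At an unadjusted limma p under 0.05, 9 of these were lower and 0 higher. Usb1, the exonuclease that trims the end of U6 RNA, read 9.02, 8.93 and 8.95 at P7 and 8.21, 8.30 and 8.12 at 6wk. It fell by 0.76 (SE 0.09, adjusted p = 0.00260) and was called in all 6 leave-one-out fits. Prmt5, which methylates Sm proteins before ring assembly, read 10.70, 10.60 and 10.55 at P7 and 10.19, 10.23 and 10.17 at 6wk, and fell by 0.41 (adjusted p = 0.0163), passing in 2 of these 6 fits.

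Of 28 SR-related factors and SR kinases 1 fell and 0 rose, with a median of 0.07 (4 fell without P7 replicate 2). At an unadjusted limma p under 0.05, 4 were lower and 1 higher (22.4% and 13.3% of all genes). Srpk1, a kinase that phosphorylates SR proteins, read 10.11, 9.95 and 10.12 at P7 and 9.66, 9.61 and 9.65 at 6wk, and fell by 0.42 (SE 0.09, adjusted p = 0.0186), passing in 2 of the 6 leave-one-out fits. Of 29 other hnRNP-type proteins 5 (17.2%) fell and 0 rose, with a median of -0.34 (17 fell without P7 replicate 2). Unadjusted limma p under 0.05 gave 12 lower and 0 higher in this list. The largest falls were in Khdrbs2 and Khdrbs3, the STAR-family proteins that control neurexin splicing in mouse neurons. Khdrbs2 read 8.49, 8.87 and 8.60 at P7 and 7.49, 7.84 and 7.61 at 6wk (-1.01, SE 0.14, adjusted p = 0.00510), and was called in all 6 leave-one-out fits. Khdrbs3 read 9.27, 9.76 and 9.49 at P7 and 8.09, 8.79 and 8.74 at 6wk (-0.97, SE 0.22, adjusted p = 0.0259), and passed in 3 of these fits. Like Lsm11 and Srsf12, both were highest in P7 replicate 2.

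The promoters of the called genes are shown because Snrpd2, Lsm3 and Lsm10 fell with all arrays, with that of Srsf12 beside them for its contrasting order at P7. Of the 57 members, 49 matched 64 RefSeq promoter windows of build GRCm38.p6, and Lsm4 and Lsm12 were not among them. Each line gives the 150 bases before the annotated start on the plus strand, with matches in capitals to any of 8 motifs searched on both strands: the NRF1 palindrome, CCGGAAG (ETS), CCAAT, TGACGTCA (CRE), TTCCCGCC (E2F), AAGATGGC (YY1), TATAAA and GGGCGG (GC box).
Snrpd2, chr7:19149688-19149837: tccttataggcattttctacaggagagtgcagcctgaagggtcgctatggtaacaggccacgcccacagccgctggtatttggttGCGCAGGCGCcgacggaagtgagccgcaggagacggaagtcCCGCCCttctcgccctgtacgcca
Lsm3, chr6:91515885-91516034: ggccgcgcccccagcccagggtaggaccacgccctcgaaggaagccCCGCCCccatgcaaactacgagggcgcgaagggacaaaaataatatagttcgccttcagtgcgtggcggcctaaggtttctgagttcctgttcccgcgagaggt
Lsm10, chr4:126096503-126096652: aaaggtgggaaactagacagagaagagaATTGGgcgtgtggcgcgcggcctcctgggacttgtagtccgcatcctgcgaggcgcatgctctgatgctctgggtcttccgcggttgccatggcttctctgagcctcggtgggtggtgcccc
Srsf12, chr4:33209122-33209271: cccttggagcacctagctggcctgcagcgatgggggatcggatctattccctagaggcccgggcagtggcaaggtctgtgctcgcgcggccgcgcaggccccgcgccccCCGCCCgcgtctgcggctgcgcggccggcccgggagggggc
The capitals mark an NRF1 match and a GC box in Snrpd2, a GC box in Lsm3 and in Srsf12, and a CCAAT box in Lsm10. The GC boxes and the CCAAT box read on the reverse strand. In windows of 250 bases before the start, a GC box was in 46 of the 64 member windows, against 32.7% of all 32851 windows and 47.2% of the windows of measured genes. NRF1 letters were in 17 (4.98% and 7.74%), ETS letters in 17 (6.91% and 9.59%) and E2F letters in 9 (1.86% and 2.65%). CCAAT was in 28 (33.8% and 34.6%), TATAAA in 4 (12.4% and 9.96%), YY1 letters in 2 (1.56% and 1.58%) and the CRE in 1 (1.55% and 2.00%). GC boxes and E2F letters can share bases where they adjoin, and the windows of members with several starts are not independent.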

How the data were processed

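The authors deposited log2 expression values. Per the submitters' processing notes these involved RMA and Affymetrix Power Tools, with mm9 as the build. No version or further step is given in the sources used here. Total RNA had been depleted of ribosomal RNA and labelled as sense-strand cDNA, per the labels' protocols. The array annotation names 1 gene for 18463 of 23750 rows, several for 1799 and none for 3488, and 0 symbols changed on comparison with RefSeq. For 471 genes with several rows the highest-mean row was kept. Values were used as deposited, and no per-sample column was left unused.

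limma 3.58.1 (R 4.3.3) tested 6wk minus P7 on all 17858 genes without a block, two-sided, with Benjamini-Hochberg adjusted p-values called under 0.05. SE and 95% intervals are limma's. The fit was tested on data simulated independently for each gene, with the same SD at both ages. Such data lack the order over the P7 arrays that most members shared. Array weights were estimated gene by gene. The members, lists and motifs were chosen with earlier results of these data known, and the lists get counts and medians, without a test. Values in every array are given for 14 fixed genes where measured and, per class, up to 4 called genes in each direction, and from each related list up to 2.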

Additional observations from a re-analysis of the deposited data

How the results depend on the processing

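The count of 5 falling members became 2 after centring each array on the same median, 31 with array weights (30.9% of all genes fell there, and P7 replicate 3 had a weight of 6.69 against 0.26 to 1.80 for the others), 8 with dim genes left out and 28 with P7 replicate 1 alone at P7, where the spread is that of the 6wk arrays. It ranged from 0 to 25 when single arrays were left out, and the count of 0 rising members held in every fit. Without P7 replicate 3 or 6wk replicate 3 there were 0 falls, and without 6wk replicate 1 or 2 there was 1. Every called member lost its call in at least 3 of these 6 fits, Snrpd2 without P7 replicate 3, 6wk replicate 1 or 6wk replicate 3 (adjusted p up to 0.0636). With 1 array fewer, less spread is measured. With P7 replicate 1 alone the median of all members was -0.45, and those of Snrp, Srsf and the SF3 genes were -0.54, -0.40 and -0.39. The SF3 median became 0.014 after centring and 0.0075 after quantile normalization. Over leave-one-out fits the Srsf median ranged from -0.40 to -0.058 and the Hnrnp median from -0.41 to 0.024. The core spliceosome median ranged from -0.060 to 0.12 in these fits and was -0.14 with P7 replicate 1 alone, where that of SR-related factors was -0.046. When single arrays were left out, 16 uncalled members took both signs, among them Hnrnpm, Hnrnpf, Snrpf, Sf3b5 and Lsm6. Of the genes fixed for description, those that changed sign in any setting were Sf3b1 (0.078 after centring, 0.076 after quantile normalization, and -0.22 to 0.16 when an array was left out), Hnrnpa2b1 (-0.43 to 0.094 when an array was left out), Hnrnpu (-0.0078 with array weights, -0.22 with P7 replicate 1 alone and -0.11 to 0.28 when an array was left out) and Srsf5 (-0.010 with P7 replicate 1 alone). The causes were not tested. The labels state no pairing of the arrays. Deviations of same-numbered arrays correlated at 0.27, 0.14 and -0.06 for replicates 1, 2 and 3, and those of unlike-numbered arrays at -0.28 to 0.21. With the replicate number as a block 2 members fell (11.6% of all genes), Snrpd2 and Snrpb2, while Lsm3, Lsm4, Lsm10 and Lsm12 lost their calls (limma adjusted p from 0.0517 to 0.0715).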
